A study of Mus musculus with 6 samples.

Results

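Described here are 9 genes of red blood cell formation in the embryonic mouse pancreas: Slc4a1, Gypc, Tal1, Lyl1, Gata1, Klf1, Alas2, Hmox1 and Pdzk1ip1. They were taken by name, and all 9 were found in the single-cell RNA matrix (31028 gene symbols) and in both single-cell ATAC matrices (8269 gene symbols each). The list was drawn up from the E13.5 ATAC values themselves, and Slc4a1, Gypc, Tal1 and Lyl1 had the 4 highest ratios between the genotypes there. Those E13.5 ratios, and every split of cells by the sum of these 4 genes, are therefore descriptions of how the list was chosen.

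All embryos were C57BL/6 mice. The wild-type groups (WT) were Ptf1a+/+, and the other groups (KO) were homozygous for a deleted Ptf1a enhancer, written Ptf1aenh-delta/enh-delta in the labels. Ptf1a encodes a transcription factor needed to form the pancreas. Every cell of a KO embryo carries the deletion, blood cells included. At embryonic day 10.5 (E10.5) the tissue was multipotent pancreatic progenitor tissue, 5 to 9 embryos pooled per dataset, with 1 RNA and 1 ATAC library per genotype. At embryonic day 13.5 (E13.5) it was pancreas from 6 embryos per dataset, with 1 ATAC library per genotype. No group had a second library, so nothing below has a replicate check, and each comparison is between 2 libraries. The E13.5 barcode prefixes name a month that differs between WT and KO, and at that stage genotype and month cannot be told apart.

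Of the ATAC cells, 838 WT and 700 KO cells came from E10.5, and 2314 WT and 602 KO cells from E13.5. Between 0 and 4 barcodes were shared by any pair of ATAC libraries, and 1 barcode by the RNA libraries. The median number of genes above 0 per ATAC cell lay between 3454 and 5182. At E13.5 it was 3454 in WT and 4243 in KO. RNA cells were kept at 1000 or more genes, which left 451 WT cells with 4106604 unique molecular identifiers (UMIs, counted RNA molecules) and 369 KO cells with 4011819. Ptf1a had 142 UMIs in WT and 0 in KO. The 11 globin genes and globin chaperones looked for were all missing from both kinds of matrix, so the most abundant red cell RNAs were not analysed here.

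Red blood cells arise in the embryo from blood progenitors, first in the yolk sac and then in the fetal liver, and circulate through every organ. Their program is run by a set of transcription factors in which Tal1 or its close relative Lyl1 pairs with Gata1 on DNA, and Klf1 then switches on globin, membrane and heme genes. Mature red cells carry a membrane built around the anion exchanger Slc4a1 and the glycophorins, and large amounts of heme. Whether any of the genes described here is also part of the pancreatic epithelial program was not tested. Hmox1 RNA was seen in some pancreatic epithelium-like cells, as given below, so signal of a single member does not by itself mark a red cell. An ATAC library reads where a transposase can cut the DNA, so the ATAC values below describe how open a gene was and not how much RNA it made.

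The start regions of the members found in the RefSeq promoter table are shown first, because Gata1, Klf1 and the Tal1 family are members here and bind short DNA motifs. The table (GRCm38.p6, the build also named mm10) held 6 of the 9 members. Windows of 250 bases before the start were searched on both strands for the GATA motif (AGATAA, also with G in the last place or T in the first), for the KLF box CCNCNCCC and for the E-box CANNTG. Capitals mark GATA motifs and KLF boxes, each sequence runs 5′ to 3′ on the gene's strand, and parts inside an annotated exon are not printed, which leaves out a second Tal1 start. The Gata1 start in the table lies inside the annotated span of the gene.
Tal1, chr4:115056176-115056425, plus strand: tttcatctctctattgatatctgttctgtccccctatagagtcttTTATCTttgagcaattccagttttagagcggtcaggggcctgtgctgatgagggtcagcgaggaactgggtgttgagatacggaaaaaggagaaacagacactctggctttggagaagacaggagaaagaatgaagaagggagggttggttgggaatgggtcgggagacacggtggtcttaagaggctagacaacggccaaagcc
Klf1, chr8:84901732-84901981, plus strand: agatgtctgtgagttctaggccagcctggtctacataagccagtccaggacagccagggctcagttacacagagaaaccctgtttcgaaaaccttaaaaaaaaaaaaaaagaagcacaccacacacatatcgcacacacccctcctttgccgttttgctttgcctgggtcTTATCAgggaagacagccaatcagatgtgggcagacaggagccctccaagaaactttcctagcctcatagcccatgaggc
Alas2, chrX:150547167-150547384, plus strand: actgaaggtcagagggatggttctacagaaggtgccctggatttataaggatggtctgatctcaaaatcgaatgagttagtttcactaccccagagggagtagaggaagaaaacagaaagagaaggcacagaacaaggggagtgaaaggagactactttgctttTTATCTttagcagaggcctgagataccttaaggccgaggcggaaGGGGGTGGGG
Gata1, chrX:7967911-7968160, minus strand: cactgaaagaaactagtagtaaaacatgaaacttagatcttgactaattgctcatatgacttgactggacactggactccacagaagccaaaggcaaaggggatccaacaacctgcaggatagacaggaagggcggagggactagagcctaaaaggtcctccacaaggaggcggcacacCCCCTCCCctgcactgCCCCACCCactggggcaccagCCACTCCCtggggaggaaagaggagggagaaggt
Lyl1, chr8:84701207-84701422, plus strand: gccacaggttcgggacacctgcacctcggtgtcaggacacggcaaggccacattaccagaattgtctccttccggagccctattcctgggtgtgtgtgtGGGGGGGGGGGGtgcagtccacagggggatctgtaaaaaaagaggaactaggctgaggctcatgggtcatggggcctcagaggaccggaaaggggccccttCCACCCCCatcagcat
Pdzk1ip1, chr4:115088458-115088707, plus strand: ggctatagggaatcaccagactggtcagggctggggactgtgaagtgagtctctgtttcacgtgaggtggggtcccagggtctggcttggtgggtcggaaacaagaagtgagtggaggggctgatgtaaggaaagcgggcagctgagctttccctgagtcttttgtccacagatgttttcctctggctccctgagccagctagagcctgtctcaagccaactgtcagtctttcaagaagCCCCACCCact
Tal1, Klf1 and Alas2 each held 1 GATA motif, beginning 205, 80 and 86 bases before the start. Gata1, Lyl1 and Pdzk1ip1 held none in this window. Of KLF boxes, overlapping matches counted, the Lyl1 window had 8, the Alas2 window 4, the Gata1 window 3 and the Pdzk1ip1 window 1, the last 11 bases before the start. The second Tal1 start had 4, while the Tal1 window shown and that of Klf1 had 0. The Lyl1 matches beginning 151, 150, 149, 148 and 147 bases before the start overlap in a single run of G. Those beginning at 33 and 31 in Lyl1, and at 35 and 26 in Alas2, lie partly or wholly in bases not printed. E-boxes, the kind of site that Tal1 and Lyl1 bind with their partners, numbered 4 in the Pdzk1ip1 window and 1 each in those of Gata1, Klf1 and Lyl1. These motifs are common: of 32851 RefSeq promoter windows of this length, 26.5% held the GATA motif, 45.9% the KLF box and 66.2% an E-box. A match is a description of the letters and not a bound site.

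In the ATAC data the level of a gene is its gene score, a signal scaled by the authors so that each cell sums to 10000 over all genes. A score is therefore relative to the other genes of the same cell, and its value was set beside others of the same gene only. Both stages were scaled in the same way but deposited as separate matrices. All 9 members had their highest library mean in E13.5 KO.

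Slc4a1 (chr11:102348820-102365281), which encodes the band 3 anion exchanger of the red cell membrane, had mean scores of 0.485 in E10.5 WT, 0.536 in E10.5 KO, 1.23 in E13.5 WT and 5.78 in E13.5 KO. Gypc (chr18:32528320-32560034), which encodes glycophorin C, a sialoglycoprotein that ties the membrane to its skeleton, had means of 0.631, 0.676, 0.827 and 3.30 in the same order. For both membrane genes the median E13.5 WT cell was at 0, while the median KO cell was at 1.54 for Slc4a1 and 1.14 for Gypc. The E13.5 KO library stood apart from the other 3 for both genes.

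Among the transcription factors, Tal1 (chr4:115056426-115071755), a helix-loop-helix factor required for blood formation, had means of 0.932 and 0.844 at E10.5 and of 1.47 and 5.03 at E13.5, WT before KO. Lyl1 (chr8:84701423-84704716), its close relative, had 0.707 and 0.717 at E10.5 and 1.22 and 4.13 at E13.5. Gata1 (chrX:7959260-7976663), a zinc finger factor of red cells and megakaryocytes, had 0.308 and 0.298 at E10.5 and 0.370 and 1.03 at E13.5. Klf1 (chr8:84901982-84905291), the factor that activates adult globin and many other red cell genes, had 0.739 and 0.713 at E10.5 and 0.925 and 1.89 at E13.5. The Gata1 and Klf1 scores were spread unevenly over cells: the median cell was at 0 in both E13.5 libraries, and the 90th percentile of Gata1 was 0.992 in WT and 3.40 in KO.

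Of the heme genes, Alas2 (chrX:150547417-150570622), which encodes the red cell form of the first enzyme of heme synthesis, had means of 0.338 and 0.318 at E10.5 and of 0.382 and 0.760 at E13.5, again WT before KO. Hmox1 (chr8:75093618-75100593), which encodes the stress-inducible enzyme that breaks heme down and is also made in macrophages, had 1.34 and 1.30 at E10.5 and 1.6 and 4.37 at E13.5. Pdzk1ip1 (chr4:115088708-115093894), a small membrane protein gene that lies 17 kb downstream of Tal1, had 1.38 and 1.24 at E10.5 and 1.99 and 5.93 at E13.5. Alas2 was the member whose E13.5 libraries lay nearest each other, with 32.3% of WT cells and 50.5% of KO cells above 0.

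**Figure D1:**
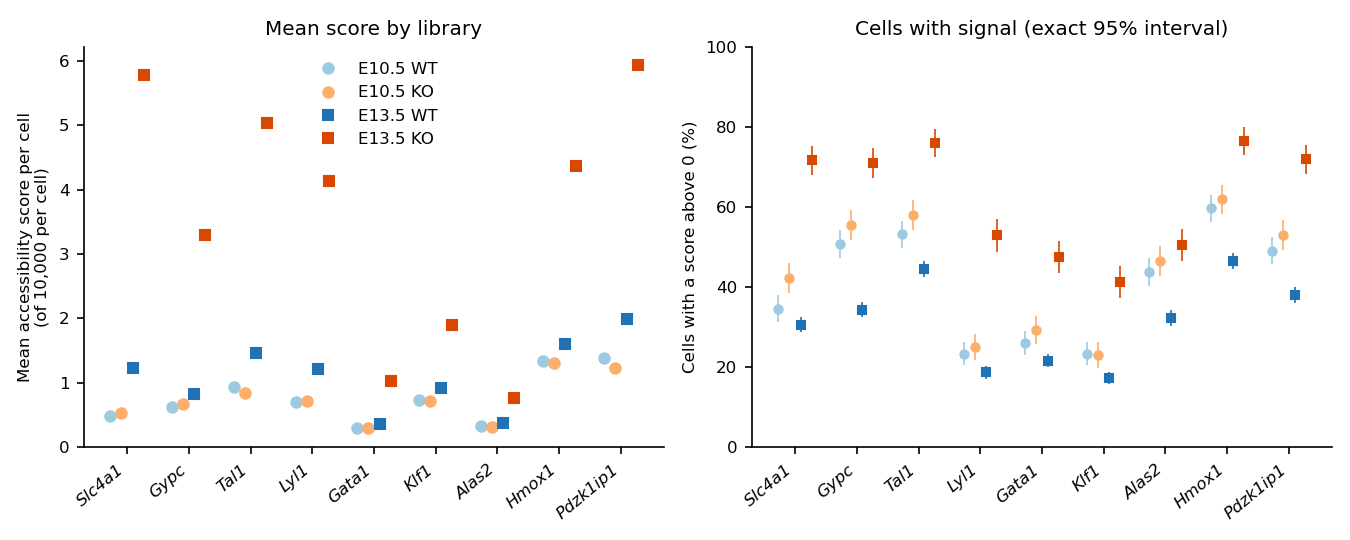
Left, mean gene score (each cell sums to 10000) of the 9 erythroid genes in the 4 ATAC libraries, without error bars because no group has a second library; right, percent of cells with a score above 0, with exact 95% binomial intervals. The E13.5 KO library has the highest mean for all 9 genes, from 0.760 for Alas2 to 5.93 for Pdzk1ip1, and the E13.5 WT library the lowest share of cells above 0.

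In WT, the mean of all 9 genes was higher at E13.5 than at E10.5 while the share of cells above 0 was lower. Slc4a1 was above 0 in 34.6% of E10.5 WT cells and 30.7% of E13.5 WT cells, although its mean went from 0.485 to 1.23. Klf1 was above 0 in 23.3% and 17.2%. The E13.5 WT signal was thus held by fewer cells at higher scores. Tissue, stage and the number of genes above 0 per cell (medians 4846 and 3454) all differ between these libraries, and their part in the difference was not tested.

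To see which cells held the signal, the scores of Slc4a1, Gypc, Tal1 and Lyl1 were summed in each cell, and cells with a sum of at least 15 are called high cells below. At E10.5 there were 5 high cells of 838 in WT (0.597%) and 9 of 700 in KO (1.29%). Their difference of 0.689 percentage points had a 95% Newcombe interval from -0.310 to 1.88, which includes 0. At E13.5 there were 173 high cells of 2314 in WT (7.48%, exact binomial interval 6.44 to 8.62%) and 259 of 602 in KO (43.0%, 39.0 to 47.1%). That difference was 35.5 points (31.5 to 39.7). These and all later intervals cover counting error only.

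In E13.5 KO the cut at 15 fell where cells were few, whereas in E13.5 WT it lay on a falling tail of cells. In E13.5 WT the lowest cell inside had a sum of 15.2 and the highest outside 14.9, with 25 cells between 12.5 and 15 and 15 cells between 15 and 17.5. In E13.5 KO these values were 15.5 and 14.8, with 10 and 4 cells. Between 20 and 25 there were 22 cells in E13.5 WT and 37 in E13.5 KO. The median sum over all cells was 1.70 in E13.5 WT and 6.02 in E13.5 KO, against 2.10 and 2.16 at E10.5. The highest sum in a cell was 24.6 in E10.5 WT, 43.8 in E10.5 KO, 79.0 in E13.5 WT and 100.28 in E13.5 KO.

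**Figure D2:**
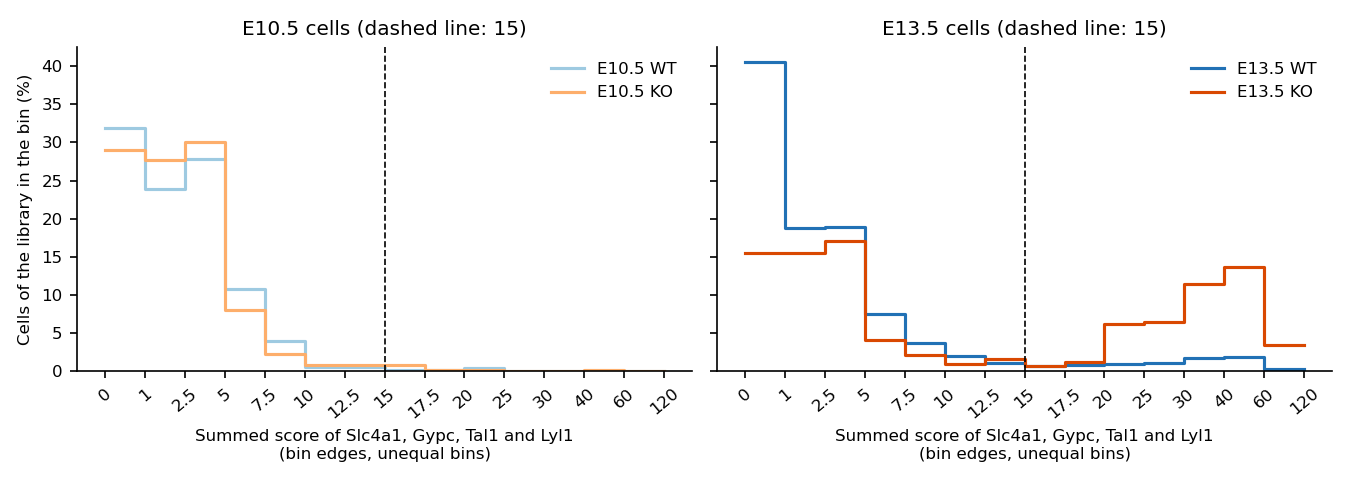
Distribution over cells of the summed gene score of Slc4a1, Gypc, Tal1 and Lyl1 in the 4 ATAC libraries (x axis: score sum in unequal bins; y axis: percent of the library's cells), E10.5 on the left and E13.5 on the right, with a dashed line at the cut of 15. High cells make up 43.0% of E13.5 KO cells and 7.48% of E13.5 WT cells.

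The 5 members outside the sum, Gata1, Klf1, Alas2, Hmox1 and Pdzk1ip1, served to describe the high cells by genes that the cut did not use. They too were listed from the E13.5 values, so their shares are descriptions. At least 4 of these 5 were above 0 in 159 of the 259 high KO cells (61.4%) and in 70 of the 173 high WT cells (40.5%) at E13.5. Among the remaining cells the shares were 22.2% in KO and 6.35% in WT. None of the 5 was above 0 in 19 high WT cells (11.0%) and in 2 high KO cells (0.772%). At E10.5, 0 of the 5 high WT cells and 0 of the 9 high KO cells had 4 or more of them. High cells also had fewer genes above 0 than the rest: the median was 2928 against 3549 in E13.5 WT and 3716 against 5371 in E13.5 KO.

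Over all E13.5 cells, KO over WT on the log2 scale of mean scores was 2.23 for Slc4a1, 2.00 for Gypc, 1.78 for Tal1 and 1.76 for Lyl1, ranks 1 to 4 of 8208 genes. It was 1.57 for Pdzk1ip1, 1.48 for Gata1, 1.45 for Hmox1, 1.03 for Klf1 and 0.99 for Alas2. A log2 ratio of at least 1 is called higher here, which held for 8 of the 9 members and for 1.24% of all genes tested (1.36% were lower by as much). The list was chosen on this contrast, so nothing is read from that count. The median over all genes was -0.03.

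With the high cells left out, 2141 WT and 343 KO cells remained and no member reached a log2 ratio of 1 (0 of 9, against 0.182% of all genes higher and 0.0608% lower). Gypc stayed farthest apart: its mean was 0.448 in WT against 0.735 in KO, or 0.72 on the log2 scale, rank 47 of 8222 genes. Slc4a1, the other membrane gene, came next with 0.521 and 0.728, a log2 ratio of 0.48 and rank 178. Hmox1 followed with 1.17 and 1.53, a log2 ratio of 0.38 and rank 390. The SD of this ratio over all genes was 0.23, and Gypc, Slc4a1 and Hmox1 lay more than 1 SD above the median of all genes. The list was chosen on E13.5 values that include these cells, so nothing is read from that distance.

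The transcription factors and Alas2 lay close together in the remaining cells. Klf1 had means of 0.739 in WT and 0.856 in KO and Tal1 of 0.818 and 0.945, and both were at 0.21. Pdzk1ip1 was at 0.15, Gata1 at 0.11 and Alas2 at 0.04. Lyl1 had means of 0.605 in WT and 0.586 in KO (-0.04). Thus Lyl1 went from rank 4 over all cells to rank 4924, while Gypc, from rank 2, went to 47.

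The share of remaining cells above 0 was higher in KO for all 9 members, Lyl1 included. It was 14.2% in WT and 25.1% in KO for Lyl1, 26.4% and 52.2% for Slc4a1, and 31.2% and 54.5% for Gypc. The remaining KO cells also had more genes above 0 (median 5371 against 3549), which moves with these shares, and its part was not tested. Weighting the cells of both libraries to 1 spread of genes above 0 gave log2 ratios of 0.91 for Gypc, 0.66 for Hmox1, 0.55 for Slc4a1, 0.41 for Klf1 and -0.24 for Lyl1. Over all the alternatives run for the remaining cells Gypc stayed between 0.42 and 0.92 and Lyl1 between -0.24 and 0.99, the last with a cut at 5.

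Within the high cells 0 of 9 members were called as well (0.23% of all genes higher, 9.12% lower), and their median ratio was 0.28, against 0.21 in the remaining cells. Gata1 was farthest apart, with means of 1.32 in WT and 1.98 in KO (0.59 on the log2 scale), rank 187 of 7840. Pdzk1ip1 (0.34), Slc4a1 (0.31), Alas2 (0.28), Gypc (0.28) and Hmox1 (0.25) followed. Tal1 was at 0.13, Klf1 at 0.02 and Lyl1 at -0.01, and Lyl1 had means of 8.86 and 8.82. Gata1 was thus the member whose score per high cell differed most between the libraries. Markers of pancreatic cells differed more: 8 of 11 pancreatic epithelium markers were lower in the KO high cells (median -1.47, summed mean score 13.5 in WT and 4.51 in KO), and so were 4 of 8 endocrine markers (6.21 and 3.79). Their part in the members' ratios was not tested.

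Had KO held its high and remaining cells in the WT proportions, with each class at its own KO mean, the log2 ratio of KO over WT would have been 0.51 for Gypc, 0.38 for Slc4a1, 0.34 for Hmox1, 0.25 for Gata1 and 0.22 for Pdzk1ip1. The other members would have lain between -0.02 (Lyl1) and 0.17 (Tal1). The high cells, which were 7.48% of WT and 43.0% of KO cells, held 60.9% of all Slc4a1 signal in WT and 92.8% in KO. For Alas2 they held 21.3% in WT and 74.9% in KO. In WT, then, most of the Alas2 signal lay outside the high cells, and so did most of the Gata1 (26.7% inside), Klf1 (26.1%), Hmox1 (32.1%) and Pdzk1ip1 (34.7%) signal.

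**Figure D3:**
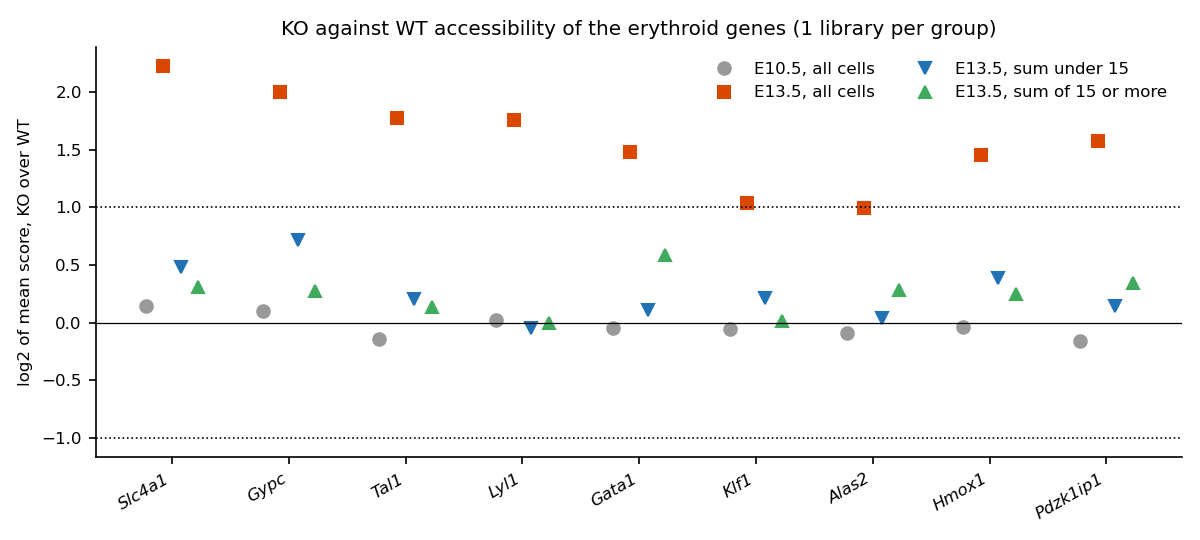
Log2 ratio of mean gene scores, KO over WT, for each of the 9 genes over all E13.5 cells, over E13.5 cells with a score sum under 15, over those with a sum of at least 15, and over all E10.5 cells (dotted lines: 1 and -1, the size called). Without the high cells Gypc lies highest at 0.72 and Lyl1 lowest at -0.04, and at E10.5 all 9 lie between -0.16 and 0.14.

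At E10.5 the 9 ratios lay between -0.16 and 0.14, with 0 members called (0% of all genes higher and 0.0122% lower). Slc4a1 was at 0.14, Gypc at 0.10 and Lyl1 at 0.02. Hmox1 (-0.04), Gata1 (-0.05), Klf1 (-0.05), Alas2 (-0.09), Tal1 (-0.14) and Pdzk1ip1 (-0.16) were on the other side of 0. The E10.5 members thus lay on both sides of 0, whereas all 9 were above 0 over all E13.5 cells. The difference between the stages was not tested.

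The E13.5 cells were also grouped without any of the 9 genes, by Leiden clustering on the other genes at resolution 0.3, which gave 4 clusters. Cluster 3 held 140 WT cells (6.05%) and 271 KO cells (45%). It held 253 of the 259 high KO cells (97.7%, 95 to 99.1%) and 127 of the 173 high WT cells (73.4%, 66.2 to 79.8%). High cells made up 93.4% of its KO cells and 90.7% of its WT cells. Genes other than the 9 thus gathered nearly the same cells in KO. In WT, 38 of the 46 high cells outside it fell in cluster 1, whose 818 WT cells had a median of 1922.5 genes above 0.

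Inside cluster 3 the 9 genes differed little between genotypes, with log2 ratios from -0.16 (Klf1) to 0.12 (Alas2). Slc4a1 had a mean of 11.7 in WT and 12.1 in KO there. Gata1, which differed by 0.59 over the high cells, was at 0.06. Outside cluster 3, and without any remaining high cell, 2128 WT and 325 KO cells were left. Gypc was at 0.42 in them (rank 319 of 8227), Slc4a1 at 0.23, Tal1 at 0.11, and Gata1, Klf1 and Hmox1 between 0.01 and 0.02. Pdzk1ip1 (-0.09), Lyl1 (-0.19) and Alas2 (-0.22) were below 0. Leaving out the cluster as well took Hmox1 from 0.38 to 0.01 and left Gypc the farthest apart of the 9.

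The high cells were then compared with the remaining cells inside each E13.5 library, which asks what else was open in them. For the 4 genes of the sum the difference is set by the cut: Slc4a1 was higher by 4.27 in WT and 4.10 in KO on the log2 scale. Among the 5 other members, Pdzk1ip1 was higher by 2.72 and 2.91, Hmox1 by 2.55 and 2.41, Gata1 by 2.17 and 2.65, Klf1 by 2.13 and 1.93, and Alas2 by 1.74 and 1.98, WT before KO. All 5 passed a log2 ratio of 1 in both libraries, against 6.57% of all genes higher (21.5% lower) in WT and 8.68% higher (28.9% lower) in KO. They held ranks 6 to 78 of 8188 genes in WT and 5 to 68 of 8222 in KO. These 5 were also listed from the same E13.5 values, so nothing is read from this count or these ranks. The median over all genes was -0.08 in WT and -0.11 in KO.

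Other red cell genes were read from fixed lists in the same way. Over all genes, 6.57% in WT and 8.68% in KO were higher in the high cells by a log2 ratio of at least 1. Of 19 membrane and skeleton genes, 14 in WT and 15 in KO were higher in the high cells by a log2 ratio of at least 1, with a median of 1.48 and 1.52. Kel, a blood group protein of the red cell surface, led them at 2.44 in WT and 2.69 in KO, and Tspo2 was lowest at -0.56 and -0.57. Of 14 genes of heme synthesis and iron import, 9 and 10 were higher, with medians of 1.21 and 1.24. Fech, the last enzyme of heme synthesis, reached 2.47 in WT and 2.20 in KO. Of 14 receptors and enzymes of red cell precursors, 10 and 11 were higher, with medians of 1.38 and 1.62. Kit, the stem cell factor receptor of early progenitors, ran the other way at -2.75 and -3.30.

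Heme breakdown and iron export gave 5 of 10 genes higher in each library, with medians of 1.00 in WT and 1.20 in KO, led by the ferritin gene Fth1 at 2.31 and 2.21. Of the other blood transcription factors, 3 of 15 in WT and 4 of 15 in KO were higher, with medians of 0.37 and 0.53. Lower by as much were 1 of them in WT and 4 in KO, against 21.5% and 28.9% of all genes. Gfi1b, a repressor of red cell and megakaryocyte genes, was highest at 1.93 and 2.32, and the lowest were Sox6 at -1.71 in WT and Bcl11a at -3.38 in KO. Membrane, heme synthesis and precursor genes were thus higher in the high cells in most cases, and the blood transcription factors outside the 9 in a minority. These lists were chosen with earlier results of these data known, so their counts are descriptions.

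Markers of other cells that such tissue can hold went mostly the other way. Over all genes 21.5% in WT and 28.9% in KO were lower there by a log2 ratio of at least 1. Of 14 endothelial markers 10 in WT and 11 in KO were lower in the high cells, and their summed mean score was 12.3 in the remaining and 5.64 in the high WT cells, and 11.7 and 4.47 in KO. Of 15 myeloid markers 7 and 9 were lower, with sums of 13.7 and 9.00 in WT and 13.3 and 8.30 in KO. Megakaryocyte markers, from cells that share Gata1 and Tal1 with red cells, were lower in 4 of 8 and 5 of 9, and 1 of them, the platelet glycoprotein gene Gp9, was higher in KO at 1.28. Of 13 pancreatic epithelium markers 12 were lower in each library, with sums of 45.3 and 13.5 in WT and 36.2 and 4.51 in KO. Lower by as much were also 8 of 13 mesenchyme markers in WT and 10 of 14 in KO (Zeb2 was higher in KO at 1.24), 3 and 4 of 4 mast cell markers, 13 and 14 of 15 endocrine markers, and 5 and 10 of 12 hepatoblast markers. None of these markers was at 0 over the high cells.

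**Figure D4:**
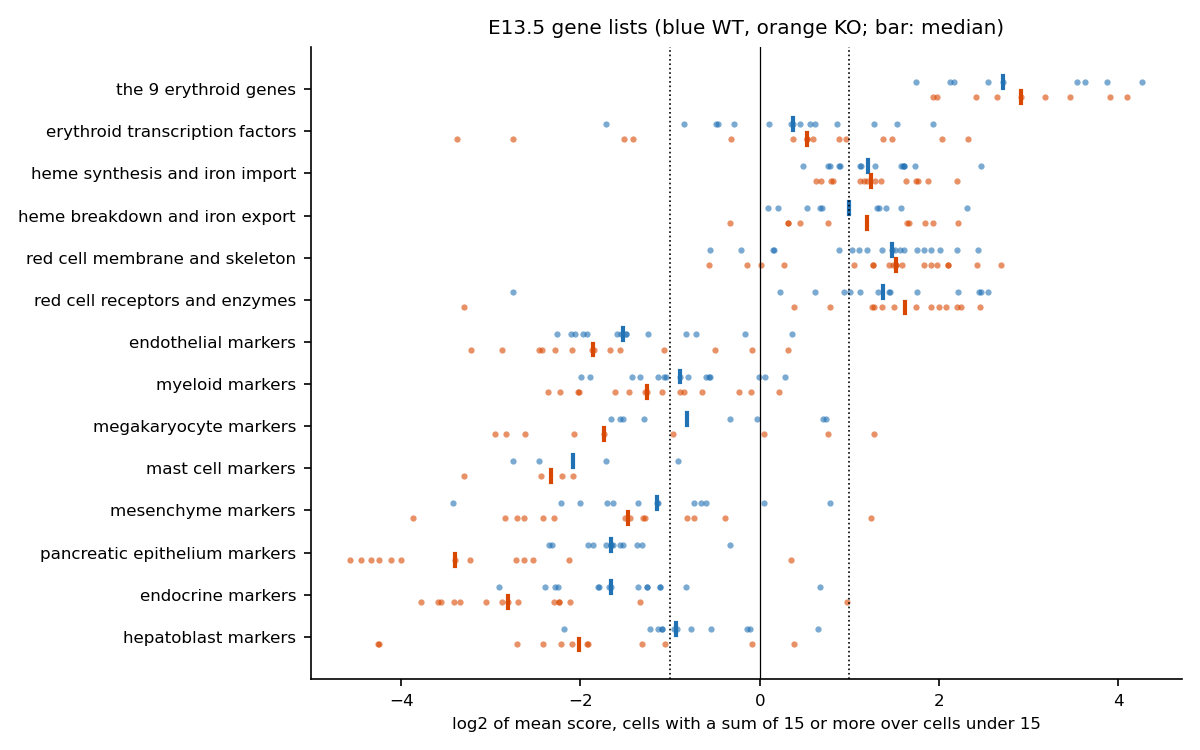
Log2 ratio of mean gene scores, high cells over the remaining cells of the same E13.5 library, for each gene of the erythroid lists and of marker lists of other cell types (points: genes; bars: medians; blue WT, orange KO; dotted lines: 1 and -1). The red cell membrane list has medians of 1.48 and 1.52, while most pancreatic epithelium and endothelial markers lie below 0.

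The fixed lists were also compared between genotypes over all E13.5 cells, where 1.24% of all genes were higher and 1.36% lower in KO. The membrane list had 4 of 19 genes higher in KO by a log2 ratio of at least 1 (median 0.82). The receptor and enzyme list had 5 of 14 (median 0.82), led by Trim10, a ring finger protein of red cell maturation, at 1.66. Heme synthesis had 3 of 14 (median 0.61; Fech 1.62) and heme breakdown 3 of 10 (median 0.67; Fth1 1.49). The transcription factors had 1 of 15 higher, Gfi1b at 1.09, and 1 lower, Sox6 at -1.08. Markers of pancreatic cells lay the other way: 5 of 13 pancreatic epithelium markers were lower in KO (median -0.90, summed mean score 42.9 in WT and 22.6 in KO), as were 3 of 15 endocrine markers (15.5 and 10.3). Scores are relative within a cell, and the part of this difference was not tested. Without the high cells 1 gene of these 5 lists was left at that size, Trim10 at 1.00, and the list medians lay between -0.08 and 0.19.

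The genes outside the 9 that followed the 4-gene sum most closely across E13.5 cells were named by the mean of the Spearman rho in WT (2314 cells) and KO (602 cells). They were Rundc3a at a mean rho of 0.47, then Slc20a1, Rbm38, Neat1, Zc3hav1, Epb41, Pim1, Slc6a9, Nudt4 and 1810013L24Rik, the last at 0.42. Among the members outside the sum, Pdzk1ip1 had rank 5 of all genes and Hmox1 rank 14, whereas Gata1 had rank 181, Klf1 rank 220 and Alas2 rank 415. These correlations share the library, the depth of each cell and many values at 0, and are given as a description. KO over WT for the 10 genes was between 1.02 and 1.70 over all cells. Without the high cells it was between -0.08 for Slc6a9 and 0.63 for Zc3hav1.

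Between members, rho across cells was low except in E13.5 KO. The 36 pairs had rho between 0.046 and 0.234 in E10.5 WT, between 0.036 and 0.253 in E10.5 KO, and between 0.059 and 0.364 in E13.5 WT. In E13.5 KO they lay between 0.188 and 0.694. The highest pair was Tal1 with Pdzk1ip1, neighbours on chromosome 4, in E13.5 WT, and the membrane genes Slc4a1 and Gypc in E13.5 KO.

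Because a gene score can take in open DNA near a gene, the nearest gene on either side that the ATAC matrix holds was read too. Other coding genes lay between in some cases, 10 of them between Pdzk1ip1 and Efcab14 and 1 each between Gypc and Bin1 or Wdr36. Rundc3a, 28.1 kb from Slc4a1, had a KO over WT log2 ratio of 1.28 over all E13.5 cells, and Ubtf on the other side 0.59. Around Gata1, Hdac6 was at 0.79 and Suv39h1 at 0.25, and near Klf1, Dnase2a was at 0.89 and Gcdh at 0.22. Bin1 (-0.51) and Wdr36 (-0.41) beside Gypc, Tro (-0.01) beside Alas2 and Efcab14 (-0.01) beside Pdzk1ip1 were not higher. Cmpk1 by Tal1 (0.26), Trmt1 (0.57) and Nfix (0.58) by Lyl1, Tmem29 by Alas2 (0.23), and Hmgxb4 (0.51) and Mcm5 (0.40) by Hmox1 were above 0 and under 1. Of these neighbours outside the 9, then, Rundc3a alone reached 1. The labels do not say how far from a gene the score reaches.

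At E10.5 the RNA libraries gave few molecules of any member. In cells with at least 1000 genes, WT and KO had 21 and 22 UMIs of Slc4a1, 20 and 31 of Gypc, 8 and 14 of Tal1, 3 and 7 of Lyl1, 7 and 5 of Gata1, 6 and 16 of Klf1, 11 and 14 of Alas2, 36 and 45 of Hmox1, and 3 and 20 of Pdzk1ip1. The 9 together made 28.0 counts per 1e6 UMIs (CPM) in WT and 43.4 in KO. At least 1 member was seen in 83 WT cells (18.4%) and 112 KO cells (30.4%), and at least 3 in 2 and 6 cells. The KO cells were also deeper, with a median of 9856 UMIs against 6700.

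As ratios of CPM, KO over WT was 6.82 for Pdzk1ip1 (exact conditional 95% interval 2.02 to 35.9) and 2.73 for Klf1 (1.02 to 8.52). The intervals of the other 7 included 1: 1.59 for Gypc (0.876 to 2.94), 1.28 for Hmox1 (0.807 to 2.04), 1.07 for Slc4a1 (0.563 to 2.05), 1.79 for Tal1 (0.701 to 4.93), 2.39 for Lyl1 (0.545 to 14.3), 1.30 for Alas2 (0.549 to 3.17) and 0.731 for Gata1 (0.183 to 2.68). These intervals take each UMI as independent, but 4 of the 16 Klf1 UMIs in KO lay in 1 cell. Over all barcodes Klf1 was at 2.14 (0.913 to 5.41), an interval that includes 1, and Pdzk1ip1 at 4.49 (1.65 to 15.3). In cells with at least 1000 genes, only Gypc and Hmox1 had at least 50 UMIs over both libraries. On the log2 scale of CPM plus 10 they were at 0.25 and 0.18, and 0 of these 2 reached 1, against 0.357% of 10367 genes higher and 0.27% lower. Gypc and Hmox1 RNA thus differed between genotypes by less than their counting error.

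With each cell thinned to 2000 UMIs, which left out 61 WT and 45 KO cells, Klf1 was seen in 0 of 390 WT and 4 of 324 KO cells and Pdzk1ip1 in 0 and 3. Slc4a1 was seen in 2 WT cells (0.513%) and 4 KO cells (1.23%), and Hmox1 in 7 (1.79%) and 9 (2.78%). At this depth a share that differs by a few cells is near the level of single molecules, so no change is read from it.

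The molecules were spread over the RNA clusters, which were made without the 9 genes and the other red cell lists. Of the members' 289 UMIs, 30.4% lay in the mesenchyme-like cluster 0, which held 17.9% of all UMIs. Endothelial markers were raised in this cluster too, with a mean log2 ratio over the other cells of 1.15, beside 1.55 for mesenchyme markers. Which of its cell types held the members was not tested. The endocrine-like cluster 1 had 28.7%, with 28.6% of all UMIs. The pancreatic epithelium-like cluster 2 had 23.5% (18.8 to 28.9%), below its 34.5% of all UMIs. The rest lay in 2 unnamed clusters. Slc4a1 was seen in 4.92% of WT and 6.94% of KO cells of that epithelium-like cluster, and in 3.99% and 4.61% of all cells. The cluster was deeper, with medians of 13016 and 15695 UMIs against 6700 and 9856 over all cells. Of its 10 KO UMIs of Slc4a1, 4 lay in 1 cell. Hmox1 was seen in 10.7% of WT and 12.5% of KO cells of the same cluster. The source of these molecules was not tested. Pdzk1ip1 had 15 of its 20 KO UMIs in the endocrine-like cluster, in 12 of 138 cells (8.70%), against 1 UMI in 70 WT cells there. That is 9.96 CPM (5.57 to 16.4) in KO and 1.22 (0.0310 to 6.82) in WT, and the KO cells of this cluster were not deeper (median 10150 UMIs against 11314). In the pancreatic epithelium-like cluster Pdzk1ip1 was seen in 1 of 122 WT cells (0.820%) and 1 of 72 KO cells (1.39%), at medians of 13016 and 15695 UMIs. Klf1 also had 10 of its 16 KO UMIs in the endocrine-like cluster, but 4 of them in 1 cell. Gypc stood in unnamed cluster 4 with 7 UMIs in 22 WT cells and 13 in 37 KO cells, or 17.2 and 19.2 CPM.

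Cells with several members were few, and they differed. A KO cell with 25302 UMIs, in the endocrine-like cluster, had 7 members, among them 5 UMIs of Tal1, 4 of Klf1 and 3 of Lyl1, and 18 UMIs of other red cell genes. Another KO cell, in the pancreatic epithelium-like cluster, had 5 members, among them 4 UMIs of Slc4a1 and 2 of Alas2, and 16 UMIs of other red cell genes. A single WT cell held 6 of the 7 Gata1 UMIs found in WT cells with at least 1000 genes. Scrublet called 2 WT and 8 KO cells doublets, and none of the cells with 3 or more members was among them.

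**Figure D5:**
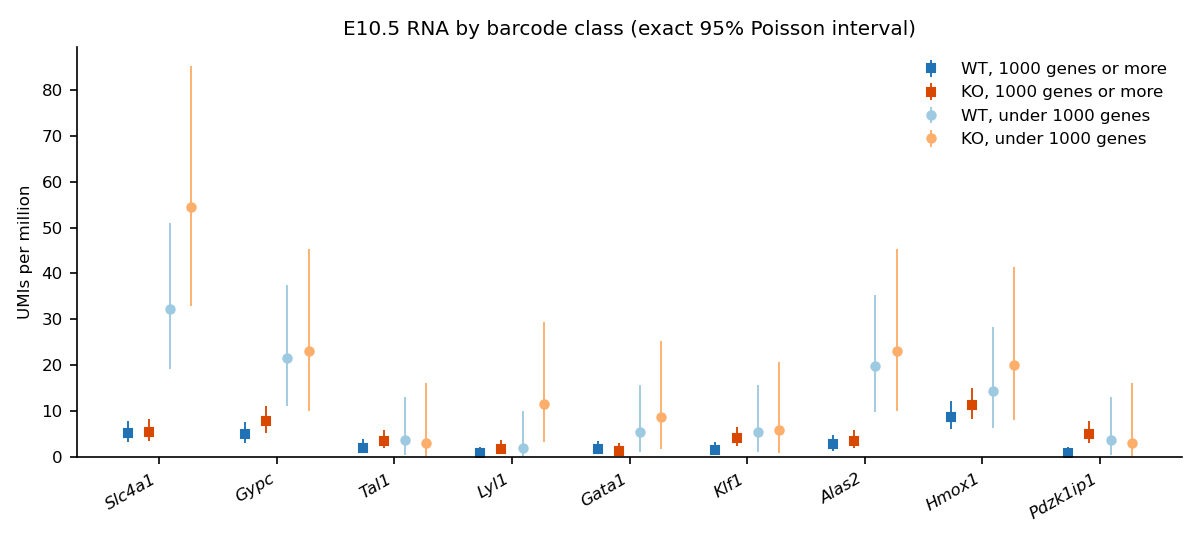
CPM of each of the 9 genes in the E10.5 RNA libraries, WT and KO, in cells with at least 1000 genes and in barcodes with fewer (y axis: CPM; bars: 95% exact Poisson intervals, counting error only). Slc4a1 has 5.11 and 5.48 CPM in the deeper cells and 32.2 and 54.6 CPM in the shallower barcodes.

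In barcodes under 1000 genes, which are outside the main values, the members made a larger part of the RNA. There were 653 such barcodes with 558618 UMIs in WT and 446 with 348257 in KO. Together the 9 genes made 107 CPM in WT and 152 in KO there, against 28.0 and 43.4 in the deeper cells. Slc4a1 was at 32.2 CPM in WT, 6.30 times its level in the deeper cells (3.16 to 12.4), and at 54.6 in KO, 9.95 times (5.09 to 19.3). Alas2 was 7.35 times higher in WT (2.89 to 18.7) and 6.58 times in KO (2.39 to 16.8). The red cell membrane gene and the heme synthesis gene were thus higher in the pooled shallow barcodes of both genotypes. Not every member was: in KO, Tal1 was at 2.87 CPM against 3.49 and Pdzk1ip1 at 2.87 against 4.99, from 1 UMI each. The ratio intervals of Tal1, Klf1, Hmox1 and Pdzk1ip1 included 1 in both libraries. Members were rarely seen in the same barcode: 1 WT and 0 KO barcodes of this class held 2 or more. These barcodes had medians of 769 UMIs in WT and 720.5 in KO, and held 60 and 53 UMIs of the members in all. At this depth few shared barcodes could be seen, so nothing is read from that count. The endothelial marker Cdh5 was also higher there, at 37.6 against 3.41 CPM in WT and 45.9 against 3.74 in KO, and Gcg, an endocrine hormone gene, was lower in WT at 113 against 6196 CPM. On the log2 scale of CPM plus 10, 2.59% of genes in WT and 2.57% in KO were higher there by at least 1, among genes with at least 50 UMIs in the library. Only Hmox1 in KO reached 50 UMIs among the members. What these barcodes are was not tested.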

How the data were processed

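Single-cell RNA (E10.5) and single-cell ATAC (E10.5 and E13.5) were measured in 6 libraries, 1 per group. The values of the deposited RNA matrix are UMI counts that were not normalized, by gene and barcode. The deposited ATAC matrices hold a gene signal that is never negative and that the authors scaled so that each cell sums to 10000. The build was mm10, per the submitters' processing notes. Not given in the sources used here are the aligner, the cell filters, the tool behind the gene signal and how the 8269 genes were chosen. The number of fragments per ATAC cell is unknown. The matrices held 0 columns of other samples.

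The members and lists were chosen with earlier results of these data known. ATAC ratios are log2 of mean scores over cells, KO over WT, for genes with a score above 0 in 10% or more of either library's cells. RNA ratios are log2 of CPM plus 10, for genes with at least 50 UMIs over both libraries, which understates low genes. With 1 library per group no test was run. Intervals, all at 95%, were exact Poisson for UMI sums, Clopper-Pearson for shares, Newcombe for differences of shares and exact conditional for ratios of counts. RNA cells with at least 1000 genes were kept, and ATAC cells were used as given. Doublets were called by scrublet in the RNA libraries only, and kept. Clusters (scanpy 1.11.5, leidenalg 0.10.2, 2000 variable genes, 30 components, 15 neighbours, resolution 0.3) were made without the members, and the RNA clusters also without the other red cell lists. They were called "-like" from marker lists, and otherwise left unnamed. Of the calculations, the log2 ratio of mean scores was tested on simulated data. Named genes are the 9 members, their neighbours held by the ATAC matrix, the highest and lowest gene of each list, and the 10 genes most like the 4-gene sum. Not every gene that the rule picks is reported. Cdh5 and Gcg were chosen after their values were seen. Alternatives were other cuts, pseudocounts, filters, call sizes and centring, cells trimmed or weighted by genes above 0, and thinning.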

Additional observations from a re-analysis of the deposited data

Results flagged for a closer look

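The KO over WT log2 ratio had opposite signs at E10.5 and E13.5 for 6 members: Tal1 (-0.14 at E10.5, 1.78 at E13.5), Gata1 (-0.050, 1.48), Klf1 (-0.052, 1.03), Alas2 (-0.092, 0.99), Hmox1 (-0.036, 1.45) and Pdzk1ip1 (-0.16, 1.57). The difference between the stages was not tested, and with 1 library per group the E10.5 values have no replicate error to be set against. Over all genes the E10.5 ratio had an SD of 0.15. Alas2 at E10.5 changed sign in 1 of 5 alternatives, reaching 0.078. The E13.5 signs follow from how the list was chosen.

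In E10.5 RNA barcodes under 1000 genes, which the main comparisons left out, 5 members lay above the level that a count of 0 allows. Slc4a1 was at 32.2 CPM in WT and 54.6 in KO, against 5.11 and 5.48 in the deeper cells. Gypc was at 21.5 and 23.0, against 4.87 and 7.73. Alas2 was at 19.7 and 23.0, against 2.68 and 3.49. Hmox1 was at 14.3 and 20.1, against 8.77 and 11.2, and its ratios of 1.63 (0.656 to 3.57) and 1.79 (0.682 to 4.0) have intervals that include 1. Lyl1 was at 11.5 in KO, against 1.74, from 4 UMIs.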

How the results depend on the processing

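No paired analysis was possible because each group has 1 library. No called member changed sign in any alternative run. The E13.5 difference in the share of high cells was 41.5 points (8.48% WT, 50% KO), against 35.5, in trimmed libraries, that is, without the 10% of cells with the fewest and the 10% with the most genes above 0. With a call at 0.5, 1 member was called without the high cells (Gypc) and 1 within them (Gata1), against 0 in each. Over all E13.5 cells a pseudocount of 0.25 left 7 members called, against 8. Lyl1 without the high cells moved from -0.04 to 0.99 with the cut at 5, added after the data were seen. Genes called among all tested moved more. Over all E13.5 cells they were 214, and 75 with a pseudocount of 0.25, 354 with trimmed cells and 2083 with a call at 0.5. Without the high cells they were 20, and 3, 9 and 305 under the same settings and 40 with weighted cells. Within the high cells they were 733, and 194 with the pseudocount, 1877 with a call at 0.5, 1269 with a cut at 10 and 401 with a cut at 20. At E10.5 they were 1 gene, and 0 with the pseudocount, 0 with trimmed cells, 4 with no filter and 53 with a call at 0.5. In RNA they were 65, and 271 with a pseudocount of 1 CPM, 122 with thinned cells and 17 in barcodes under 1000 genes, and in the last 2 no member had 50 UMIs. RNA depth limits the members: with 3 to 45 UMIs per gene and library, a change within the counting intervals given was not detectable.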
